A study of Rattus norvegicus with 39 samples.

Results

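Early restriction history was examined in the cerebral cortex of 28-month-old male BN rats that were eating the same lipoic acid diet when they were sampled. The members are 6 of the 39 RNA-seq libraries of the series, chosen by their labels alone: 3 pools of rats fed ad libitum with lipoic acid (28 m AL+LA, pools 34, 35 and 36) and 3 pools of rats that were calorie restricted and then moved to ad libitum feeding with lipoic acid at 12 months of age (28 m CR>AL+LA, pools 28, 29 and 30). Each pool joined the RNA of 2 rats, so that 6 rats stand behind each group. Dietary groups were set up at 2 months of age, restricted rats were given 55% of the food intake of the ad libitum fed rats, and the lipoic acid diet held 1.5 g of racemic lipoic acid per kg. The groups therefore differed in what they ate before the switch, and for the 16 months between the switch and sampling they shared a diet. The rats with a history of restriction also received lipoic acid only after the switch, so early restriction and a shorter time on lipoic acid cannot be told apart.

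Calorie restriction is the reduction of food intake without malnutrition, and it extends lifespan in many laboratory animals. Lipoic acid is a sulphur compound that serves, bound to protein, as a cofactor of mitochondrial dehydrogenase complexes, and that acts as an antioxidant when given in the diet. A diet eaten early in life can leave a mark that outlasts it, which is called dietary memory. Proposed carriers of such a mark include histone acetylation and other forms of chromatin control, and these are represented among the genes described here.

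Reads on genes ranged from 2754552 in pool 30 to 4250747 in pool 29 for 28 m CR>AL+LA, and from 3898282 in pool 35 to 4150520 in pool 34 for 28 m AL+LA. Levels are given in CPM, the reads on a gene scaled to the depth of the library. One read was worth between 0.235 and 0.363 CPM, so a gene of 1 CPM rests on a handful of reads. Over the 9728 genes with a mean of 10 CPM or more in the 6 pools, the median gene differed by 0.161 to 0.188 (log2 CPM) between pools of the same group and by 0.147 to 0.195 between pools of different groups. The medians were 0.177 for the 6 pairs within groups and 0.180 for the 9 pairs across groups, and their ranges overlapped. Every pair of pools differed by more than the sampling noise (chi-square per degree of freedom of 2.88 or more), so none was a library deposited more than once. The labels do not say how rats were assigned to pools, and p-values measure the spread between pools.

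Some of the pools carried features of their own. Residual ribosomal RNA, read through Rn28s, took 0.927% of the reads on genes in pool 34 and between 3.00% and 3.25% in the other 5 pools. Pool 28 held cerebellar transcripts: Gabra6, a GABA-A receptor subunit of cerebellar granule cells, was at 28.5 CPM there and between 0 and 0.992 CPM in the other 5 pools, and 6 of the 9 measured cerebellar markers were highest in that pool. Pool 35 held the plasma protein albumin, Alb, at 129.8 CPM, against 10.4 to 23.99 CPM in the other 5 pools. Markers of neurons and astrocytes were present at similar levels in both groups. The summed level of 4 neuronal markers (Gad1, Syt1, Nrgn and Nefm) ran from 702 to 828 CPM in 28 m AL+LA and from 742 to 760 CPM in 28 m CR>AL+LA, and that of 3 astrocyte markers (Gfap, Aqp4 and Gjb6) from 1464 to 1664 CPM and from 1265 to 1607 CPM. In pooled tissue, fewer cells of a type and less RNA per cell cannot be told apart.

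No gene was differentially expressed between 28 m CR>AL+LA and 28 m AL+LA. Of the 17230 genes tested, 0 passed an adjusted p of 0.05 (0%; quasi-likelihood test of edgeR, adjusted by Benjamini and Hochberg), and the smallest adjusted p was 0.999. At an unadjusted p under 0.05 there were 716 genes, 340 higher (1.97%) and 376 lower (2.18%) after early restriction, or 4.16% of the genes tested. DESeq2 and edgeR's exact test also called 0 genes, with 287 and 662 genes at an unadjusted p under 0.05. The count stayed at 0 when any of pools 28, 29, 30, 34 or 35 was dropped, and 1 gene without a name passed when pool 36 was (log2 1.86, adjusted p = 0.00544, edgeR). The 3 pools of one group lay wholly above or below the 3 pools of the other for 1638 genes (9.51%), 790 of them higher (4.59%) and 848 lower (4.92%) in 28 m CR>AL+LA. Without any filter on low values 20 genes passed; they included Alb, Gabra6 and Rn28s, described above, and the cerebellar gene Fat2, and in that fit the spread of single genes no longer entered the test (its prior degrees of freedom were infinite).

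The size of difference that these 6 pools could have missed was read from the 95% interval of each fold change. For 3693 of the 3695 genes at 50 CPM or more, the whole interval lay within ±1 on the log2 scale, and for 3632 (98.3%) it lay within ±0.58, a factor of 1.5. Among the 6033 genes between 10 and 50 CPM, the interval lay within ±1 for 5930 (98.3%) and within ±0.58 for 3915 (64.9%). Of the 5581 genes between 1 and 10 CPM, only 1806 (32.4%) had an interval within ±1, and of the 1921 genes under 1 CPM, 1 had. For most transcripts at 50 CPM or more a difference of more than 1.5 times was thus outside the interval. For most transcripts under 10 CPM the interval reached beyond ±1, so a difference of that size was not left out. Each interval covers its own gene and is not adjusted for the number of genes.

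**Figure D1:**
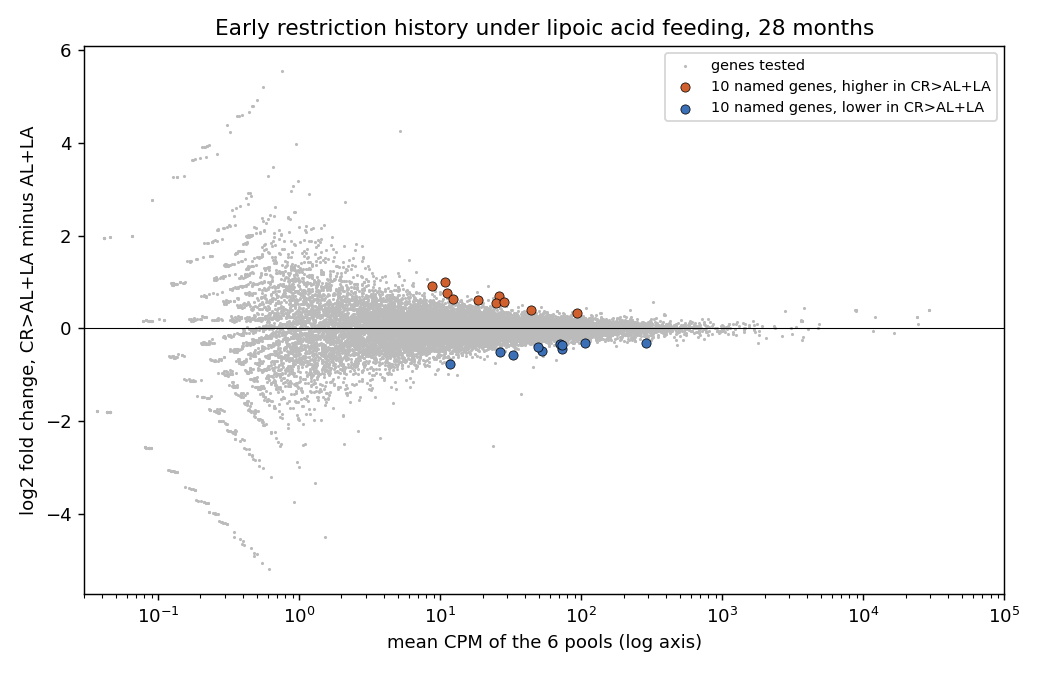
Log2 fold change (28 m CR>AL+LA minus 28 m AL+LA, y axis) of the genes tested against their mean CPM in the 6 pools (log x axis). Orange and blue points are the 20 named genes, none past an adjusted p of 0.05; the cloud narrows as expression rises and is centred on 0.

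Gene names were at hand for 1669 of the genes tested. These are genes that the authors called in some comparison of these libraries, so they are not a random sample: they lean to higher expression, an unadjusted p under 0.05 was found for 128 of them (7.67%), and 194 (11.6%) had pools that did not overlap, against 4.16% and 9.51% over all genes. The 10 named genes per direction with the smallest unadjusted p and separate pools are described next. They were ranked on this contrast, none passed the threshold (adjusted p = 0.999 for each, edgeR), and their values are given as a description. Among genes without a name, the leading ones were ENSRNOG00000018191 and ENSRNOG00000050538 at the higher end (log2 1.22 and 0.91) and ENSRNOG00000032274 and ENSRNOG00000005342 at the lower end (log2 -0.68 and -0.74).

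Among the genes with higher values after early restriction, Dnah11, a heavy chain of axonemal dynein, had the largest ratio. It measured 7.54, 8.49 and 5.48 CPM in pools 34, 35 and 36 of 28 m AL+LA and 15.9, 9.92 and 18.1 CPM in pools 28, 29 and 30 of 28 m CR>AL+LA, a log2 difference of 1.01 ± 0.27 (SE, n = 3 pools per group, unadjusted p = 0.00117, edgeR). Dcn encodes decorin, a proteoglycan of the extracellular matrix, and was at 21.1, 14.2 and 24.5 CPM against 25.2, 41.2 and 29.9 CPM. The lowest restricted pool and the highest unrestricted pool of Dcn nearly touch. Ptgds, which like Dcn is made in the meninges, was at 434, 377 and 389.5 CPM in 28 m AL+LA and at 329, 568 and 446 CPM in 28 m CR>AL+LA, highest in pool 29, the pool where Dcn was also highest. Whether meningeal tissue had a part in the Dcn values was not tested.

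Calb1, the calcium buffer calbindin, was the most abundant of the higher genes. Its values were 82.0, 75.3 and 92.8 CPM in 28 m AL+LA and 104.8, 107.9 and 102.5 CPM in 28 m CR>AL+LA (log2 0.34 ± 0.11, SE, n = 3 pools per group, unadjusted p = 0.00427, edgeR). Tmbim4, a membrane protein that restrains apoptosis, lay between 19.1 and 21.4 CPM in the first group and between 26.7 and 32 CPM in the second. HIST1H4B, a histone H4 gene, lay between 19.3 and 28.2 CPM and between 31.02 and 36.7 CPM. Histone genes have near-identical copies, and the level of HIST1H4B is uncertain. The study's methods state that multiply mapping reads were not allowed, but Rn28s and copies of it held near-equal counts (121517, 121076 and 120511 reads in pool 28), so how reads shared between copies were assigned is not known.

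The transcription factors Zic2 and Neurod1 are also markers of cerebellar granule cells. Zic2 was at 5.77, 6.57 and 6.00 CPM in 28 m AL+LA and at 15.6, 7.94 and 11.0 CPM in 28 m CR>AL+LA. Neurod1 was at 8.87, 8.76 and 7.56 CPM and at 20.3, 11.9 and 9.82 CPM. Both were highest in pool 28, the pool with Gabra6. Without pool 28 the log2 difference of Zic2 went from 0.92 to 0.61 and that of Neurod1 from 0.76 to 0.39. Dnah11 and Calb1 were also high in other pools with Gabra6, as seen in rats fed ad libitum without lipoic acid (28 m AL). There Gabra6 was at 592.0 and 530.8 CPM in pools 7 and 9 and at 0.29 CPM in pool 8. Dnah11 was at 30, 38.2 and 13.05 CPM and Calb1 at 261.2, 178.3 and 88.75 CPM in pools 7, 9 and 8. Without pool 28 the log2 difference was 0.92 for Dnah11 and 0.34 for Calb1. The part of cerebellar tissue in the values of Zic2, Neurod1, Dnah11 and Calb1 was otherwise not tested. Parp9, an ADP-ribosyltransferase, Plcxd3, a phospholipase-like protein, and Gtf3c6, a subunit of the transcription factor TFIIIC, completed the higher genes, with log2 differences of 0.61, 0.40 and 0.63.

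The log2 differences of the genes with lower values after early restriction ran from -0.77 to -0.32, beside 0.34 to 1.01 for the higher genes. Kndc1, a guanine nucleotide exchange factor of neuronal dendrites, measured 79.8, 90.9 and 82.9 CPM in 28 m AL+LA and 59.0, 70.0 and 56.6 CPM in 28 m CR>AL+LA, a log2 difference of -0.44 ± 0.12 (SE, n = 3 pools per group, unadjusted p = 0.00095, edgeR). Atp13a2, a lysosomal polyamine transporter, measured 62.8, 67.9 and 56.1 CPM against 39.8, 51.3 and 41.6 CPM. Nav2, a neuron navigator protein of the growing axon, measured 40.1, 42.7 and 34.4 CPM against 28.0, 22.8 and 28.7 CPM. For Kndc1, Atp13a2 and Nav2 the gap between the groups was smaller than the range within either group.

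Bsn, the scaffold protein bassoon of the presynaptic active zone, was the most abundant of the named genes. It was at 351.7, 319.0 and 292.3 CPM in 28 m AL+LA and at 229.4, 253.5 and 288.6 CPM in 28 m CR>AL+LA, so that pools 36 and 30 nearly met. Bcl9, a coactivator of Wnt signalling, had the largest ratio in this direction (log2 -0.77), at 12.8 to 18.4 CPM against 6.86 to 11.2 CPM. The signalling regulators Dab2ip (a Ras GTPase activator) and Dennd5b (a Rab exchange factor) differed by -0.34 and -0.36, and the actin regulator Fmnl1 by -0.40. Mylip, an E3 ligase that lowers the LDL receptor, differed by -0.50, and Sulf2, which trims heparan sulphate, by -0.32.

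**Figure D2:**
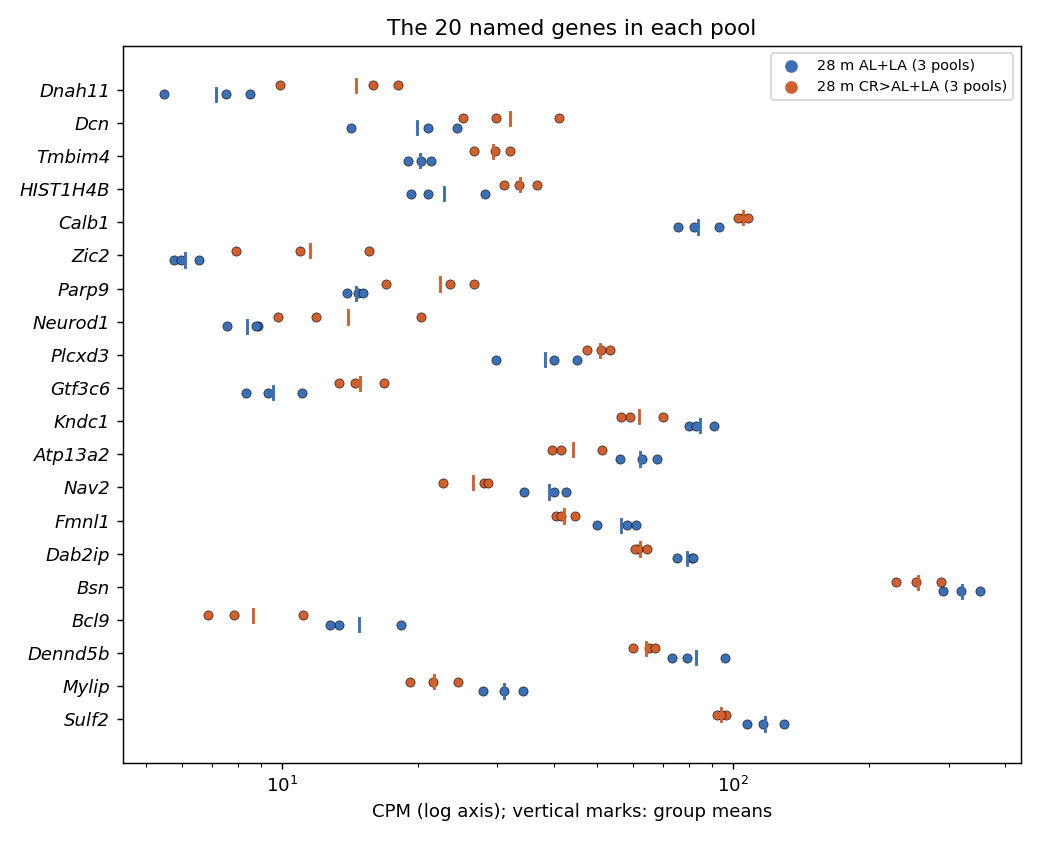
CPM (log x axis) of the 20 named genes in each pool of 28 m AL+LA (blue) and 28 m CR>AL+LA (orange), with vertical marks at the group means. The groups do not overlap because the genes were chosen for that; Bsn, Dcn and Plcxd3 show how narrow the gap can be.

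Across the 8 diets sampled at 28 months, the mean of 28 m CR>AL+LA was the highest for Dcn, Tmbim4, Parp9 and Gtf3c6, and the lowest for Kndc1, Atp13a2, Nav2, Dab2ip, Bsn, Bcl9 and Dennd5b. The mean of 28 m AL+LA was instead the lowest of the 8 for Dnah11, HIST1H4B, Zic2 and Plcxd3, and the highest for Nav2, Fmnl1 and Sulf2. For Calb1, Neurod1 and Mylip (3 of the 20 genes), both groups lay within the span of the other 6 diets. These ranks were not tested, and the choice of genes whose pools lay apart in these groups favours ranks at either end.

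The 23 dietary memory genes that the study names were then examined. They include chromatin regulators (Hdac5, a histone deacetylase, and Kat6a, a histone acetyltransferase), dual-specificity phosphatases (Dusp6, Dusp8 and Dusp14) and activity-regulated genes (Nr4a1 and Sik1). The study chose them on these samples, so they are not independent evidence of any direction. None of the 23 passed the threshold (0%, as over all genes). Ppm1f, a phosphatase of CaM kinases, was higher at an unadjusted p of 0.0334 and Chmp1a, of the ESCRT-III machinery, lower at an unadjusted p of 0.026 (edgeR). This makes 8.70% of the list, against 4.16% of all genes and 7.67% of the genes with a name, from which the list comes. Ppm1f was at 14.6, 16.4 and 17.99 CPM in 28 m AL+LA and at 18.9, 19.8 and 29.1 CPM in 28 m CR>AL+LA. Its highest value was that of pool 30, the shallowest library. Chmp1a was at 68.1, 57.2 and 68.3 CPM and at 45.3, 61.0 and 48.7 CPM, with overlap in pools 35 and 29. Pools did not overlap for 3 higher and 1 lower of the 23 genes (17.4%, against 9.51% of all genes and 11.6% of genes with a name). Among these were Morf4l1, a chromodomain protein of acetyltransferase complexes, at 92.7, 87.6 and 89.2 CPM against 101.8, 103.2 and 93.1 CPM, and Pacsin1, an endocytic adaptor of neurons, at 35.5, 33.4 and 35.7 CPM against 27.4, 31.2 and 28.7 CPM.

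Of these 23 genes, 11 had a positive and 12 a negative fold change, and their median was -0.00 on the log2 scale, as was that of all genes (0.00). The 95% interval lay within ±1 for 23 of the 23 genes and within ±0.58 for 17 of them. Hdac5 was at 25.5, 25.7 and 24.5 CPM in 28 m AL+LA and at 25.2, 23.1 and 19.2 CPM in 28 m CR>AL+LA. Kat6a was at 49.2, 49.8 and 43.0 CPM and at 49.1, 48.6 and 56.9 CPM. The pools of both genes overlapped between the groups.

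**Figure D3:**
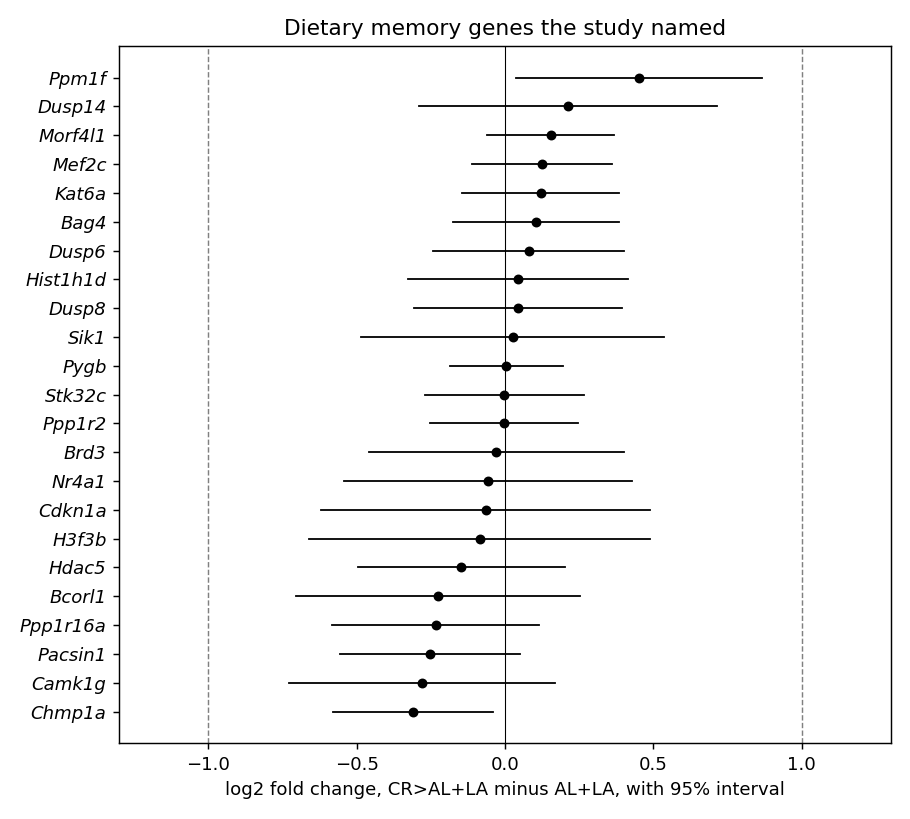
Log2 fold change (28 m CR>AL+LA minus 28 m AL+LA) with its 95% interval for the 23 dietary memory genes named in the study, with dashed lines at ±1. No interval reaches either dashed line, and the intervals of Ppm1f and Chmp1a leave out 0 before adjustment.

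The pathways of lipoic acid and of restriction were followed through lists of genes, and none of their members passed the threshold. Among 15 measured genes of glutathione and thioredoxin metabolism, 0 had an unadjusted p under 0.05. The share was 4.16% of all genes and 7.67% of genes with a name, so a list this short would hold few. Of these 15 genes, 9 were higher and 6 lower, and every interval lay within ±0.58. Sod1, the cytosolic superoxide dismutase, was at 159, 189 and 184 CPM in 28 m AL+LA and at 190.4, 206 and 181 CPM in 28 m CR>AL+LA. Mt3, a metallothionein of the brain that binds zinc and copper, was at 96.0, 162.4 and 123.8 CPM and at 100.4, 139.4 and 93.9 CPM. Of the enzymes that make or carry lipoate, 1 of 16 could be read by name: Amt, of the glycine cleavage system, was at 13.97, 7.94 and 9.65 CPM and at 10.4, 15.6 and 12.96 CPM. The groups overlapped for all of these genes.

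Among 30 nuclear genes of oxidative phosphorylation, 19 were higher and 11 lower, with a median of 0.05, and 28 intervals lay within ±0.58. An unadjusted p under 0.05 was found for 1 of the 30 (3.33%, edgeR), against 4.16% of all genes and 7.67% of genes with a name. Atp5c1, the gamma subunit of ATP synthase, was at 49.4, 68.5 and 68.6 CPM in 28 m AL+LA and at 76.3, 69.2 and 87.6 CPM in 28 m CR>AL+LA (log2 0.32 ± 0.13, SE, n = 3 pools per group, unadjusted p = 0.0221, edgeR). Its low value was that of pool 34, and without that pool the difference was 0.17. Cox7b, of cytochrome c oxidase, was at 142.8, 217.4 and 162.7 CPM and at 214.3, 186 and 213.6 CPM, low in pool 34 as well, and the groups overlapped.

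Genes of nutrient sensing, the clock and neuronal activity also held none past the threshold. Irs1, which relays the insulin signal, was at 14.9, 18.1 and 13.6 CPM in 28 m AL+LA and at 15.1, 20.3 and 17.3 CPM in 28 m CR>AL+LA. Of the 5 measured genes of its list, 0 had an unadjusted p under 0.05, beside 4.16% of all genes. Of 8 clock genes, 7 were lower and 1 higher, with a median of -0.12, and 0 had an unadjusted p under 0.05 (smallest 0.139, edgeR). Cry2, a repressor of the clock, was at 109, 103 and 83.7 CPM and at 86.7, 90.0 and 84.4 CPM. Among 11 immediate early genes Arc, which acts at the synapse, had the smallest unadjusted p (0.0426, edgeR), at 279, 201 and 177.5 CPM and at 199.5, 177 and 166 CPM. Egr1, a transcription factor of the same list, was at 178.5, 199.9 and 108.7 CPM and at 139.9, 126.2 and 138.6 CPM. Of these 11 genes, 8 were highest in pool 34, and without that pool the log2 difference of Arc was -0.06 in place of -0.27.

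Genes of immune presentation, stress and lipid synthesis had no member past the threshold either. Cd74, the invariant chain of MHC class II, was at 76.7, 102 and 87.1 CPM in 28 m AL+LA and at 90.0, 80.9 and 112 CPM in 28 m CR>AL+LA. The co-chaperone Dnajb4 was at 51.7, 48.5 and 55.3 CPM and at 68.3, 59.3 and 55.4 CPM (unadjusted p = 0.0584, edgeR), with pools 36 and 30 almost level. Hmgcs1, an early enzyme of cholesterol synthesis, was at 420, 395 and 389 CPM and at 418, 418 and 466 CPM. None of 5 MHC class II, 8 heat shock and 7 cholesterol genes had an unadjusted p under 0.05. Nor had any of 7 glutamate receptor, 9 neuropeptide and 3 histone acetylation genes. The share was 4.16% of all genes and 7.67% of genes with a name, so lists this short would hold few.

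The 137 genes that the study associated with long-lived cohorts were counted as a further list, added after the data were seen and also chosen on these samples by the study. At an unadjusted p under 0.05, 5 were higher and 3 lower, or 5.84% against 4.16% of all genes and 7.67% of genes with a name. Pools did not overlap for 12 genes (8.76%, against 9.51% and 11.6%), and the median fold change was 0.06 on the log2 scale. The smallest unadjusted p (0.0204, edgeR) was that of Phc2, a Polycomb protein, at 45.2, 40.8 and 39.6 CPM in 28 m AL+LA and 32.1, 29.5 and 36.9 CPM in 28 m CR>AL+LA. One of 2 features named Arpp19, an inhibitor of protein phosphatase 2A, followed (log2 0.50), low in pool 34 at 13.08 CPM, and then Pgrmc1, a heme-binding membrane protein, at 195.6, 190.1 and 232.0 CPM and 240.9, 257.7 and 228.9 CPM. For Phc2 the groups did not overlap, and for Pgrmc1 they did.

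The state before the switch was approached by comparing 12 m CR with 12 m AL+LA, 3 pools each of rats sampled at 12 months on the diets that the 28-month groups had eaten early. Here 44 genes (10 with all 13 groups in one fit, 111 without a filter) were differentially expressed (0.255% of 17230), 4 higher (0.0232%) and 40 lower (0.232%) in restricted rats. Of these, 27 were features whose level followed Rn28s over the 39 libraries (Pearson r of 0.8 or more in size), and all 27 were lower. Rn28s itself was at 28900, 21620 and 35650 CPM in 12 m AL+LA and at 4320, 3124 and 3016 CPM in 12 m CR. It is ribosomal RNA, which the authors depleted, so its level also follows how well depletion worked in a library.

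Named messenger RNAs were among the other 17 genes. Rbm3, a cold-inducible RNA-binding protein, was higher in restricted rats, at 101.6, 111.2 and 82.5 CPM in 12 m CR against 60.7, 56.0 and 41.1 CPM in 12 m AL+LA (log2 0.90, edgeR adjusted p = 0.00254). Hba-a2 and Hba2, of hemoglobin alpha, were lower by -0.87 and -0.71, Ftl, the light chain of ferritin, by -1.73, and Chchd10, a mitochondrial protein of the intermembrane space, by -0.91. The hemoglobin genes share sequence, and their separate values are uncertain. Some of these genes followed Rn28s below the cut of 0.8. Pearson r over the 39 libraries was 0.739 for Ftl, 0.672 for Chchd10, 0.459 for Hba-a2, 0.422 for Hba2 and -0.355 for Rbm3. The part of ribosomal RNA in their values was not tested. For Rbm3, Hba-a2, Hba2, Ftl and Chchd10 the 3 pools of 12 m CR did not overlap with those of 12 m AL+LA. Chchd10 no longer passed without pool 15 (-0.73, adjusted p = 0.074) or pool 38 (-0.82, adjusted p = 0.0788), and Hba2 without pool 14 (-0.61, adjusted p = 0.0901) or pool 37 (-0.64, adjusted p = 0.0904, edgeR). With all 13 groups in one fit Hba-a2 (adjusted p = 0.625), Hba2 (0.736) and Chchd10 (0.348) did not pass. Reads not aligned took 41.1% to 43.2% in 12 m CR and 39.3% to 41.0% in 12 m AL+LA, and their part in these values was not tested.

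These differences were small at 28 months. Rbm3 was at 68.5, 58.9 and 56.3 CPM in 28 m AL+LA and at 91.1, 51.3 and 69.9 CPM in 28 m CR>AL+LA, a log2 difference of 0.21 with a 95% interval from -0.11 to 0.53. The difference was -0.03 for Hba-a2 (-0.29 to 0.24), -0.10 for Hba2 (-0.38 to 0.19), 0.02 for Ftl (-0.41 to 0.46) and 0.21 for Chchd10 (-0.12 to 0.53). Each of these 5 intervals leaves out the size of the difference at 12 months. Over the 44 genes, 9 kept the direction they had at 12 months (20.5%, against 46.4% of all genes), and their median fold change, signed by the direction at 12 months, was -0.18. Without the 27 features that followed Rn28s, 9 of 17 kept their direction (52.9%) and the median was 0.03. Without pool 34, the pool low in Rn28s, the median over the 44 genes was also 0.03. No rat was sampled at both ages, and the rats of 12 m CR had not eaten lipoic acid.

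An interaction term over 12 pools set the difference above against that between 28 m CR>AL and 28 m AL. In the arm with lipoic acid, early restriction came with a shorter time on lipoic acid. The term cannot separate these, so it does not isolate an action of lipoic acid on the mark of restriction. The interaction called 457 genes (2.65%), 130 with a higher (0.754%) and 327 with a lower (1.90%) difference under lipoic acid. It called 341 of the 1669 genes with a name (20.4%). Its count ran from 246 (without pool 28) to 1013 (without pool 8). In the arms, 0 genes were called with lipoic acid and 1202 (6.98%) without it, 760 higher (4.41%) and 442 lower (2.57%) in 28 m CR>AL, a count that ran from 516 (without pool 26) to 1978 (without pool 8). Gfap, the intermediate filament of astrocytes, was at 140.4, 203.0 and 170.8 CPM in 28 m AL and at 665.3, 606.7 and 647.3 CPM in 28 m CR>AL. With lipoic acid it was at 692.7, 632.1 and 861.9 CPM in 28 m AL+LA and at 535.1, 758.0 and 680.6 CPM in 28 m CR>AL+LA, so that 28 m AL alone stood apart. The libraries of 28 m AL also stood apart in alignment: 27.5% to 33.2% of their reads were not aligned, against 40.1% to 40.7% in 28 m CR>AL, 38.5% to 41.3% in 28 m AL+LA and 37.99% to 41.2% in 28 m CR>AL+LA. Younger rats fed ad libitum without lipoic acid were at 29.1% to 32.1% (6 m AL) and 30.4% to 36.1% (12 m AL). The difference in alignment and that of diet cannot be told apart in these 12 pools.

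Ywhah, a 14-3-3 protein, the ribosomal proteins Rpl35 and Rpl8, and the lysosomal protease Ctsb shared this pattern. Ywhah averaged 349 ± 12.1 CPM in 28 m AL, 956 ± 78.6 in 28 m CR>AL, 920 ± 26.6 in 28 m AL+LA and 921 ± 59.2 in 28 m CR>AL+LA (SD, n = 3 pools). In the other direction were Atp5c1, Htra1 (a secreted protease), Ddx3x (an RNA helicase), Dnah11 and HIST1H4B. Htra1 averaged 153 ± 14.4 CPM in 28 m AL, 75.8 ± 7.04 in 28 m CR>AL, 82.8 ± 14.5 in 28 m AL+LA and 86.8 ± 1.06 in 28 m CR>AL+LA (SD, n = 3 pools). Of the 3 pools of 28 m AL, pools 7 and 9 held Gabra6 at 592.0 and 530.8 CPM, and pool 8 at 0.29 CPM. The interaction called 7 of the 9 cerebellar markers, all 7 higher, beside 2.65% of all genes and 20.4% of genes with a name. Without pools 7 and 9, which leaves pool 8 alone in 28 m AL and takes the spread from the other 3 groups, the interaction called 202 genes and that of Dnah11 was 1.33 (adjusted p = 0.165, edgeR), and what cerebellar tissue contributed to the rest was not tested.

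Where the later diet was restriction, early restriction was also followed by no differential expression: 0 genes passed between 28 m CR and 28 m AL>CR (453 at an unadjusted p under 0.05, 2.63%), and DESeq2 called 0 as well (179). Without pool 16 of 28 m CR, 7 genes passed. The difference between that effect and the one under lipoic acid, tested as an interaction over 12 pools, also called 0 genes, with 633 at an unadjusted p under 0.05 (3.67%) and 0 by DESeq2 (374). Both comparisons, and that of 28 m CR>AL with 28 m AL, were added after the data were seen.

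The 20 named genes were followed through 3 other comparisons that use none of the same pools. That of 12 m CR with 12 m AL+LA sets apart the diets being eaten at sampling. The others set apart earlier diets under a shared later diet. Of these genes, 7 had the same sign between 12 m CR and 12 m AL+LA, 8 between 28 m CR>AL and 28 m AL, and 7 between 28 m CR and 28 m AL>CR, beside 46.4%, 49.0% and 48.3% of all genes. Between 28 m CR>AL and 28 m AL, 8 of them had the opposite sign at an unadjusted p under 0.05 and 2 the same (edgeR). Over all genes tested these counts were 1882 and 1775. Pearson r with the fold changes of the main comparison was -0.53 over the 20 genes and -0.05 over all genes. What lay behind this was not tested. Only Gtf3c6 had the same sign in all 3 comparisons. Over the 716 genes with an unadjusted p under 0.05, 63 (8.80%) had 1 sign throughout, against 10.8% of all genes.

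**Figure D4:**
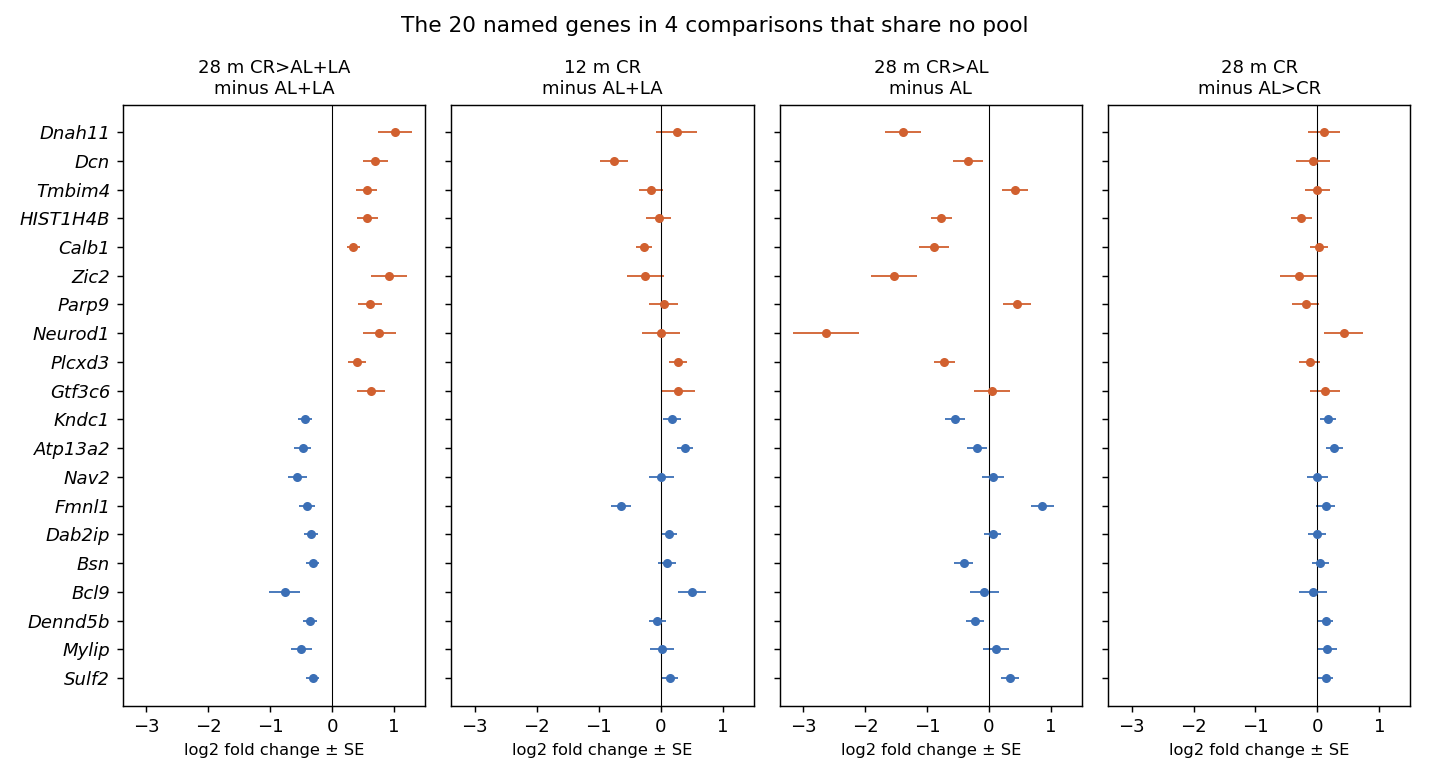
Log2 fold change ± SE of the 20 named genes in 4 comparisons (panels), which share no pool. The rats of 12 m CR were still restricted when sampled. Orange and blue mark the sign in the first panel, by which the genes were chosen. In the other panels 7, 7 and 8 of the 20 genes kept their sign (12 m CR, 28 m CR and 28 m CR>AL). In the panel of 28 m CR>AL, 8 genes had the opposite sign at an unadjusted p under 0.05 and 2 the same (edgeR).

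Over all genes tested, 996 had a log2 fold change beyond ±1. Of these, 702 lay under 1 CPM, 290 between 1 and 10 CPM, 4 between 10 and 50 CPM and 0 at 50 CPM or more. Among the 1669 genes with a name, which lean to higher expression, 4 had such a fold change. Dnah11 was 1 of them, and in the other 3 a single pool set the value. Gabra6 had a log2 difference of 4.26 with pool 28 and of 0.18 without it, and Fat2, a cadherin of granule cells, of 1.48 and -0.76. Alb had -1.42 with pool 35 and 0.25 without it. Btg2, an immediate early gene, was at 68.5 CPM in pool 34 and 79.8 CPM in pool 28, and between 12.1 and 15.6 CPM in the other 4 pools, so that 1 pool of each group was high. With pools 28 and 34 both left out, and with a term for them in the fit, 0 genes were called (641 and 717 at an unadjusted p under 0.05, edgeR).

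**Figure D5:**
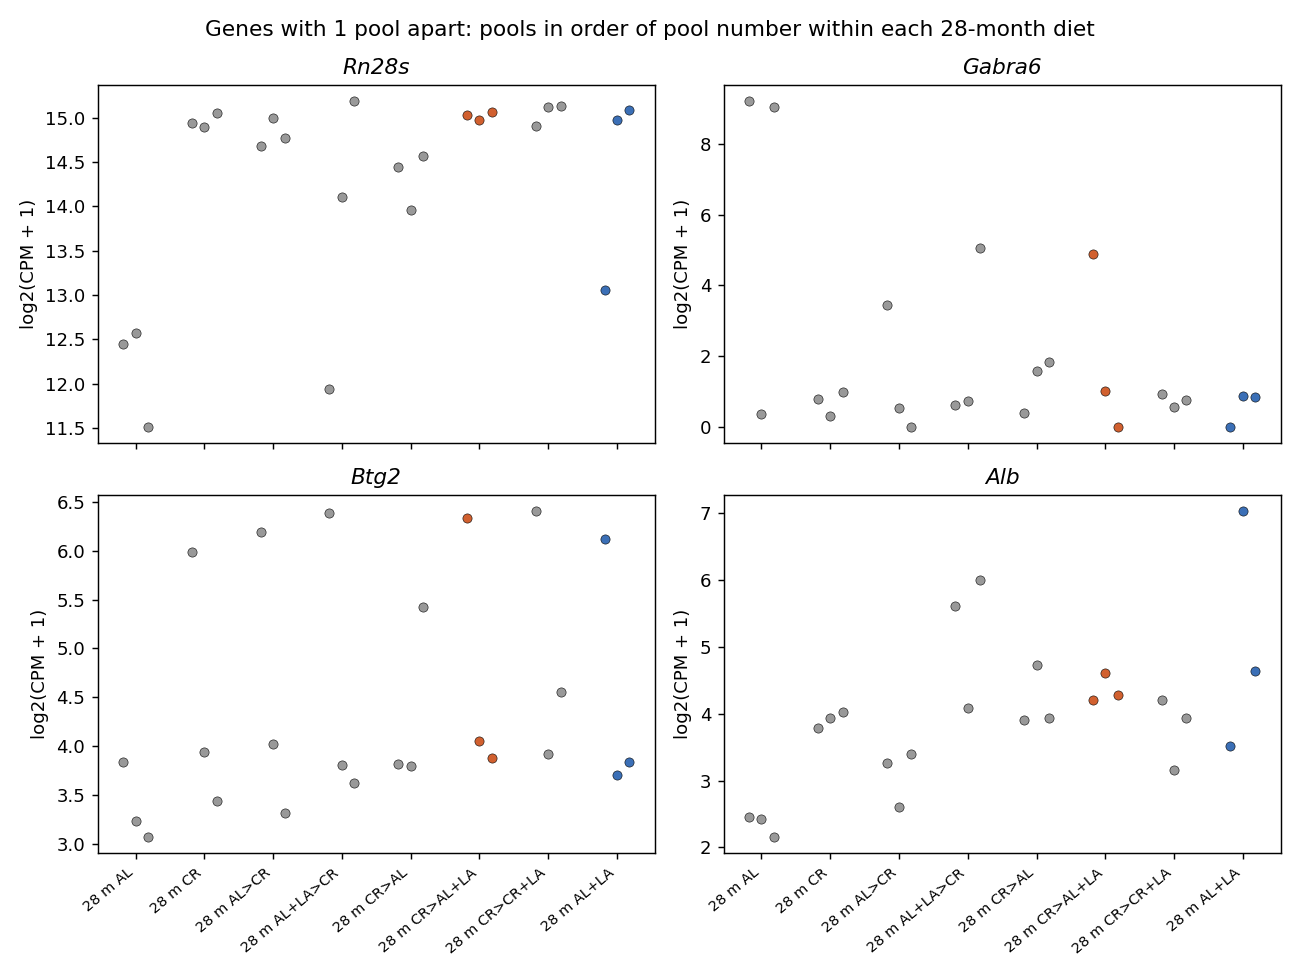
log2(CPM + 1) of Rn28s, Gabra6, Btg2 and Alb in each pool of the 8 diets at 28 months, with 28 m AL+LA in blue, 28 m CR>AL+LA in orange and the other diets in grey, and pools in order of their number. Pool 34 is low in Rn28s, pool 28 high in Gabra6, pool 35 high in Alb, and pools 28 and 34 high in Btg2.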

How the data were processed

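Ribosomal RNA was depleted from pooled cortex RNA, and libraries were sequenced on a SOLiD instrument. Per the labels and the study's methods, the authors mapped reads with Bowtie to rn5 with multiply mapping reads stated as not allowed, and counted them per Ensembl gene with HTSeq; the versions of Bowtie and HTSeq are not given in the sources used here. The deposited values are raw counts of 26123 genes, followed by 5 lines for reads on no gene or not aligned, which were dropped (80.8% to 82.2% of the aligned reads of the 6 pools lay on no gene). The filter asked for 1 CPM or more in 3 or more libraries, which 17230 genes met. Groups were compared with edgeR 4.0.16 in R 4.3.3 (TMM, quasi-likelihood test, Benjamini-Hochberg adjustment), using only the groups compared. Printed CPM use TMM factors from the whole series. The SE was taken as the log2 fold change over the root of F.

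The test was run on simulated data first: intervals held the true value at close to their nominal rate, but where genes kept their own estimated dispersion, false calls exceeded the nominal share, so counts of calls may include more false ones than the threshold states. Alternatives were DESeq2 1.42.0, edgeR's exact test, RLE size factors, other filters, all 13 groups in one fit, and each pool left out. Names pair with 1669 identifiers in the study's supplementary tables; lists and members were chosen with earlier results of these data known. The named genes were, per direction, up to 15 with an adjusted p under 0.05 and separate pools or, where fewer than 10 passed, the 10 with the smallest unadjusted p, separate pools and a name. At 12 months and in the interaction, up to 5 per direction passing the threshold were named, with pools separate in at least 1 arm of the interaction, a reading chosen after the data were seen.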

Additional observations from a re-analysis of the deposited data

Results flagged for a closer look

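The interaction term over 12 pools, of early restriction and lipoic acid in the later diet, called 457 genes (edgeR, 3 pools per group). One of its 4 groups, 28 m AL, stood apart from the other 3 in reads not aligned (27.5% to 33.2%, against 37.99% to 41.3%), and 2 of its pools held the cerebellar gene Gabra6 at 592 and 530.8 CPM. The part of alignment in the calls was not tested. Without the 2 pools high in Gabra6, which leaves 1 pool in 28 m AL, the count was 202. The interaction, on the log2 scale, was 1.21 for Atp5c1, 1.08 for Htra1, 1.02 for Ddx3x, 2.40 for Dnah11 and 1.34 for HIST1H4B. It was -2.05 for Gfap, -1.46 for Ywhah, -1.71 for Rpl35, -1.85 for Rpl8 and -1.22 for Ctsb. For Gfap, Ywhah, Rpl35, Rpl8 and Ctsb the difference without lipoic acid was 1.91, 1.47, 1.94, 2.04 and 1.28, and with lipoic acid -0.14, 0.01, 0.23, 0.19 and 0.05. That of Rpl35 with lipoic acid had a 95% interval from 0.02 to 0.44 (unadjusted p = 0.0335, edgeR), before adjustment.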

How the results depend on the processing

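No paired analysis was possible because the pool numbers of the labels differ in every group. The count of 0 genes between 28 m CR>AL+LA and 28 m AL+LA held under DESeq2, edgeR's exact test, RLE, a minimum of 10 counts in every library, and all 13 groups in one fit. It was 20 without a filter, where the prior degrees of freedom of the fit were infinite, and 0 to 1 with each pool left out (1 without pool 36). The interaction of early restriction and lipoic acid called 819 genes without a filter, 201 with all 13 groups in one fit, 202 without pools 7 and 9 (1 pool left in 28 m AL), and 246 to 1013 with each pool left out. The highest of these was without pool 8 of 28 m AL, and other counts more than 1.5 times below 457 came without pools 9, 26, 28, 29, 30 or 35; the cause was not tested. At 12 months the count was 111 without a filter, 10 with all 13 groups in one fit and 38 to 49 with each pool left out, where the cause was not tested. The count between 28 m CR>AL and 28 m AL ran from 516 (without pool 26) to 1978 (without pool 8), with pools 9, 25 and 27 also lowering it by more than 1.5 times; that between 28 m CR and 28 m AL>CR from 0 to 7 (without pool 16; 2 without pool 17 and 1 without pool 19 or 20), and the interaction of early restriction with later diet from 0 to 1 (without pool 16). The median at 28 months of the genes called at 12 months ran from -0.39 to 0.03 with each pool left out, within the spread between pools. The sign of the 20 named genes under a left-out pool is fixed by their choice for separate pools. Of the 157 other list members, 95 changed sign when some pool was left out. Gabra6 was -0.44 without pools 28 and 34. With each pool left out, Fat2 ran from -0.76 (without pool 28) to 2.03, and was -0.50 without pools 28 and 34; Alb ran from -1.93 to 0.25 (without pool 35). With all 13 groups in one fit, Hba-a2, Hba2 and Chchd10 at 12 months and the interaction of Dnah11 and HIST1H4B kept their direction and no longer passed.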

Other observations

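Btg2 was highest in the lowest-numbered pool in 12 of the 13 groups of the series, and the highest pool was at 2 times the next or more in 11 of them. What the order of pool numbers stands for is not given in the sources used here. The exception was 28 m CR>AL, where pool 27 was highest at 41.8 CPM. In 12 m CR it was at 112.2 CPM in pool 13 and at 16.3 CPM or less in the other pools, and in 28 m CR>CR+LA at 83.6 CPM in pool 31.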
